A study of Mus musculus with 8 samples.

Results

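The 10 genes described here encode the granins and the enzymes and binding proteins that turn peptide precursors into peptides: Chga, Chgb, Scg2, Scg3, Scg5, Vgf, Pcsk1, Pcsk2, Pcsk1n and Cpe. They were chosen by name, and all 10 were found among the 19224 genes of the expression table. Their levels were followed in 1303 single neurons of the mouse stellate ganglion, the sympathetic ganglion that supplies the heart and the forelimb. The animals were C57BL6/J mice of 8 to 10 weeks, all of them injected with AAV-GFP in the heart and AAV-tdTomato in the front paws, and no mouse was left uninjected. Each neuron carries 1 of 8 deposited subtype names: NA1a, NA1b, NA1c, NA2, NA3, Ach1, Ach2 and Glut. The study describes the NA subtypes as noradrenergic, the Ach subtypes as cholinergic and Glut as glutamatergic.

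Sympathetic neurons store neuropeptides such as Npy in large dense-core vesicles and release them together with noradrenaline. Granins are acidic secretory proteins that gather in the trans-Golgi network, bind calcium and the soluble cargo, and help dense-core vesicles to form. Inside the vesicle the prohormone convertases cut precursors after pairs of basic residues, carboxypeptidase E trims the residues left behind, and amidation often completes the peptide.

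The genes fall into 4 roles. Chga, Chgb, Scg2 and Scg3 encode the classical granins chromogranin A, chromogranin B, secretogranin II and secretogranin III, and Vgf encodes a granin-like precursor of several peptides. Pcsk1 and Pcsk2 encode the convertases PC1/3 and PC2. Scg5 encodes 7B2, a chaperone of PC2, and Pcsk1n encodes proSAAS, an inhibitor of PC1/3. Cpe encodes carboxypeptidase E, which is also a sorting receptor. In the GENCODE annotation of GRCm38 the granin genes lie at chr12:102554969-102565028 (Chga), chr2:132781278-132795079 (Chgb), chr1:79434669-79440120 (Scg2), chr9:75643189-75684056 (Scg3) and chr5:137026392-137033351 (Vgf). The others lie at chr13:75089826-75134861 (Pcsk1), chr2:143546156-143816285 (Pcsk2), chr2:113776362-113829121 (Scg5), chrX:7919822-7924410 (Pcsk1n) and chr8:64592542-64693054 (Cpe). Pcsk2 and Pcsk1n overlap Pcsk2os1 and Eras on the opposite strand, which are also in the table.

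Promoter sequence was at hand for 8 of the 10 genes (RefSeq, build GRCm38.p6), as the 250 bases before and 50 bases after each start. Vgf and Cpe had no entry. Granin promoters are textbook targets of cyclic AMP signalling, so the cyclic AMP response element TGACGTCA, which reads the same on both strands, was searched, together with its 5-base core TGACG on either strand. The full element was present in 3 of the 8 promoters, those of Chgb, Scg2 and Pcsk1, and in 1.79% of all 32851 promoters. The core, which every full element contains, was present in 7 of the 8, Pcsk1n being the exception, and in 20.8% of all promoters. The stretches around the match are shown for 5 granin and convertase genes that the comparisons turn on, 5′ to 3′ on the gene's own strand, with the match in capitals.
Chgb (plus strand, chr2:132781559-132781588): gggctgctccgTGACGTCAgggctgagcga
Scg2 (minus strand, chr1:79440076-79440105): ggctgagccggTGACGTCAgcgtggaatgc
Pcsk1 (plus strand, chr13:75089768-75089797): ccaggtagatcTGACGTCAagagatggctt
Chga (plus strand, chr12:102554886-102554912): gggcggtcctaTGACGtaatttcctgg
Pcsk2 (plus strand, chr2:143546088-143546114): tggcgggcgcgCGTCAcccgggctggc
The full element began 72 bases before the start of Chgb, 68 before Scg2 and 78 before Pcsk1, and the core began 44 bases before Chga and 34 before Pcsk2. In the GENCODE annotation of the same build, the Chgb and Scg2 stretches lie inside an exon and the other 3 lie upstream of the gene. A match of letters says nothing about whether a factor binds there.

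Values over mice came from the 5 mice whose names matched a sample, with 1002 neurons and between 165 and 235 neurons each. The other 3 mouse names, with 301 neurons, matched no single sample and entered pooled values only. The study lists the 5 matched mice as its batch 2 and its other 3 mice as batch 1. Values over mice therefore cover 1 batch, and a difference between matched and unmatched neurons cannot be told apart from one between batches. A level is the mean over neurons of a gene's UMIs (unique molecules) per 10000 UMIs of the neuron, for mice with at least 10 neurons of the subtype, followed by the SD over mice. NA1a, NA1b, NA1c and NA2 reached that number in 5 mice, NA3 in 3, Ach2 in 2, Ach1 in 1 and Glut in none. Orders of levels below are among the 6 subtypes with values in 2 or more mice, and Ach1 and Glut are described last. Median UMIs per neuron were 8181.5 in NA1a, 6643.5 in NA3, 3338 in NA1b, 3228 in Ach2, 2778.5 in NA1c and 2341.5 in NA2. Neuronal markers (Dbh, Th, Snap25, Syt1 and Prph) were detected in every subtype. All 3 cholinergic markers (Slc18a3, Chat and Vip) were detected in Ach2 neurons of the matched mice. Chat, the acetylcholine-synthesising enzyme, was at 0 in the 62 Ach1 neurons, in every noradrenergic subtype and in Glut. Slc18a3 and Vip were detected in Ach1 and in each noradrenergic subtype. Dbh and Th measured 16.4 and 7.19 in Ach1 of mouse 4, against 5.27 ± 2.61 and 1.5 ± 0.518 in Ach2. In noradrenergic subtypes their means lay between 5.47 (NA3) and 11.9 (NA1b) for Dbh, and between 2.9 (NA3) and 8.47 (NA2) for Th. Vip measured 45.7 ± 14.3 in Ach2, 5.07 in Ach1 of mouse 4, and between 0.338 ± 0.138 (NA1b) and 0.776 ± 1.01 (NA2) in noradrenergic subtypes. Pcsk1n was among the genes by which the authors told neurons from other cells, so its presence in nearly every neuron is in part a result of that choice.

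Cell barcodes recurred between libraries. Among the 5 matched mice, 21 barcodes occurred in 2 to 5 libraries, and they held 73 neurons with a median of 2046 UMIs, 55 of them NA2 and 15 Ach2. For 20 of the 21 barcodes all copies carried the same subtype name. The median correlation of log expression between NA2 neurons of different mice was 0.499 for 70 pairs with the same barcode and 0.455 for 1068 other pairs of these neurons. The levels and differences of the 10 genes in NA2 and Ach2 are therefore also given without these neurons, as an analysis added after the data were seen, which leaves 4 mice for NA2 and 2 for Ach2. Without them NA2 measured 2.48 ± 1.40 UMIs per 10000 for Chga, 4.01 ± 0.537 for Chgb, 5.31 ± 0.793 for Scg2, 2.1 ± 0.597 for Scg3 and 0.471 ± 0.351 for Vgf, and 0.453 ± 0.211 for Pcsk1, 0.580 ± 0.293 for Pcsk2, 40.0 ± 6.15 for Pcsk1n and 2.42 ± 0.797 for Cpe (SD, n = 4). Ach2 measured 1.01 ± 0.509 for Chga, 0.600 ± 0.136 for Chgb, 0.790 ± 0.256 for Scg2 and 0.948 ± 0.00815 for Scg3, and 0.600 ± 0.275 for Pcsk1, 0.238 ± 0.236 for Pcsk2, 25.2 ± 2.32 for Pcsk1n and 2.13 ± 1.84 for Cpe (SD, n = 2). Chgb in NA2 thus lay higher without these neurons than with them.

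Chga was high in NA1c and NA1a and low in NA1b. In NA1a it measured 2.80, 2.87, 6.06, 6.34 and 5.44 UMIs per 10000 in mice 1 to 5, with a mean of 4.70 ± 1.74 (SD, n = 5). In NA1c the mean was 5.08 ± 0.770 (n = 5), and in NA1b the 5 mice lay between 0.843 and 2.24 with a mean of 1.62 ± 0.508. Every NA1b value therefore lay below every NA1a and NA1c value. NA2 (2.34 ± 1.38, n = 5), NA3 (2.03 ± 0.363, n = 3) and Ach2 (1.05 ± 0.00479, n = 2) were also low. In this order NA1c and NA1a did not differ beyond their spread, nor did NA2 and NA3 or NA3 and NA1b.

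Of the 6 subtypes, Ach2 had the lowest Chgb. Its means were 3.09 ± 0.472 in NA2, 3.00 ± 1.23 in NA1a and 2.92 ± 0.836 in NA1c, which were closer together than the mice of one subtype. NA1b followed with 1.95 ± 0.585 and NA3 with 1.5 ± 0.523. The Ach2 profiles measured 0.388 and 0.751 UMIs per 10000 in mice 1 and 4, below all other profiles of this gene.

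Scg2 was highest in NA2 and NA1a. In NA1a it measured 3.13, 3.18, 5.01, 5.77 and 5.64 in mice 1 to 5 (4.55 ± 1.30), and in NA2 3.34, 7.37, 3.83, 4.56 and 5.93 (5.01 ± 1.64). NA1c (2.81 ± 0.899) and NA1b (2.58 ± 0.508) lay lower, NA3 lower again (1.59 ± 0.515), and the Ach2 profiles were at 0.469 and 0.743. Both Ach2 values were below every other profile.

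Scg3 followed no such order. Its means ran from 1.92 ± 0.117 in NA3 to 0.848 ± 0.175 in Ach2, and no step between neighbouring subtypes exceeded the larger SD of the pair.

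Vgf was sparse in noradrenergic neurons and, among the 6 subtypes, highest in Ach2. Its means were 0.375 ± 0.182 in NA1a, 0.342 ± 0.220 in NA1b, 0.267 ± 0.137 in NA1c, 0.242 ± 0.208 in NA2 and 0.109 ± 0.0961 in NA3, and these neighbours did not differ beyond their spread. The 2 Ach2 profiles measured 1.77 and 1.46, above all noradrenergic profiles, and gave 1.61 ± 0.0284 without recurring barcodes. Only 5 of the 25 profiles reached the filter of 0.5 UMIs per 10000 for this gene, 2 of them NA1a, 1 NA1b and 2 Ach2.

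Both convertases had their highest mean in NA1a. Pcsk1 measured 1.08, 0.593, 0.806, 1.53 and 2.86 in NA1a of mice 1 to 5 (1.37 ± 0.901), and its means in the other subtypes lay between 0.403 ± 0.354 in NA2 and 0.668 ± 0.345 in NA1b. Mouse 5 thus held the highest NA1a value, and it also held the highest NA1c, NA2 and NA3 values. Pcsk2 measured 1.07, 0.672, 0.989, 0.850 and 1.65 in NA1a (1.05 ± 0.371), then 0.807 ± 0.269 in NA1c, 0.556 ± 0.190 in NA2, 0.537 ± 0.211 in NA1b and 0.490 ± 0.171 in NA3. Its Ach2 profiles were at 0.0542 and 0.310. For both convertases the step from NA1a to the next subtype was smaller than the SD of NA1a.

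A UMI of Pcsk1 or Pcsk2 was found in 70.3% of 182 NA1a neurons (exact 95% interval 63.1 to 76.9), and UMIs of both in 26.4%. In NA1b the share with either was 35.9% of 237 neurons, in NA1c 38.0% of 216, in NA2 27.3% of 150, in NA3 44.6% of 92 and in Ach2 32.6% of 46. It was 25.8% of 62 Ach1 neurons and 64.7% of 17 Glut neurons. Without recurring barcodes it was 31.6% of 95 NA2 neurons and 38.7% of 31 Ach2 neurons. NA1a neurons were also the most deeply sampled, so each neuron was thinned to 2000 UMIs, leaving out shallower ones. The share with either convertase was then 37.5% of 176 NA1a neurons (30.3 to 45.1), 20.5% of 195 NA1b neurons, 18.3% of 169 NA1c neurons, 16.8% of 101 NA2 neurons, 15.3% of 85 NA3 neurons and 17.9% of 39 Ach2 neurons. Thinned shares were 22.2% of 36 Ach1 neurons (10.1 to 39.2) and 58.3% of 12 Glut neurons (27.7 to 84.8), the latter above NA1a with an interval that overlaps it. Without recurring barcodes they were 15.2% of 66 NA2 and 16.7% of 30 Ach2 neurons. The NA1a interval did not overlap that of NA1b (15.1 to 26.9) but overlapped that of Ach2 (7.54 to 33.5), and such intervals cover counting error only. Over the 5 mice the thinned share with Pcsk1 was 24.6 ± 18.0% in NA1a and 13.3 ± 3.7% in NA1b (SD). With Pcsk2 it was 20.4 ± 9.12% and 9.06 ± 4.61%. The table holds neurons alone, so the share that free RNA gives in cells without these genes could not be measured.

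Of the convertase-binding proteins, Scg5 was highest in NA2, with 5.45, 4.73, 5.24, 2.67 and 2.99 in mice 1 to 5 (4.22 ± 1.30), against 2.22 ± 0.715 in NA1a and 1.22 ± 0.420 in NA3. Without recurring barcodes the NA2 level was 3.83 ± 1.58 over 4 mice, and Ach2 went from 2.66 ± 0.0234 to 1.39 ± 1.05. Pcsk1n was at 47.0, 50.6, 50.4, 51.0 and 24.7 in NA1a (44.7 ± 11.3), with NA2, NA1c and NA1b between 37.6 and 41.6 on average and within the spread of the mice. Ach2 was lower at 27.9 ± 1.04, and NA3 was the lowest of the 6 at 16.1 ± 4.42, where the 3 mice measured 13.7, 21.2 and 13.4.

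Cpe, the trimming enzyme, was the highest of the 6 subtypes in NA3, with 5.21, 2.65 and 3.55 in mice 2, 4 and 5 (3.80 ± 1.30), and the lowest in NA1a, where the mice lay between 1.25 and 1.86 (1.45 ± 0.249). NA2 (2.56 ± 0.635), NA1c (2.13 ± 1.22), Ach2 (1.90 ± 1.43) and NA1b (1.84 ± 0.485) lay between, with no step beyond the larger SD. The NA1a and NA3 values did not overlap.

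**Figure D1:**
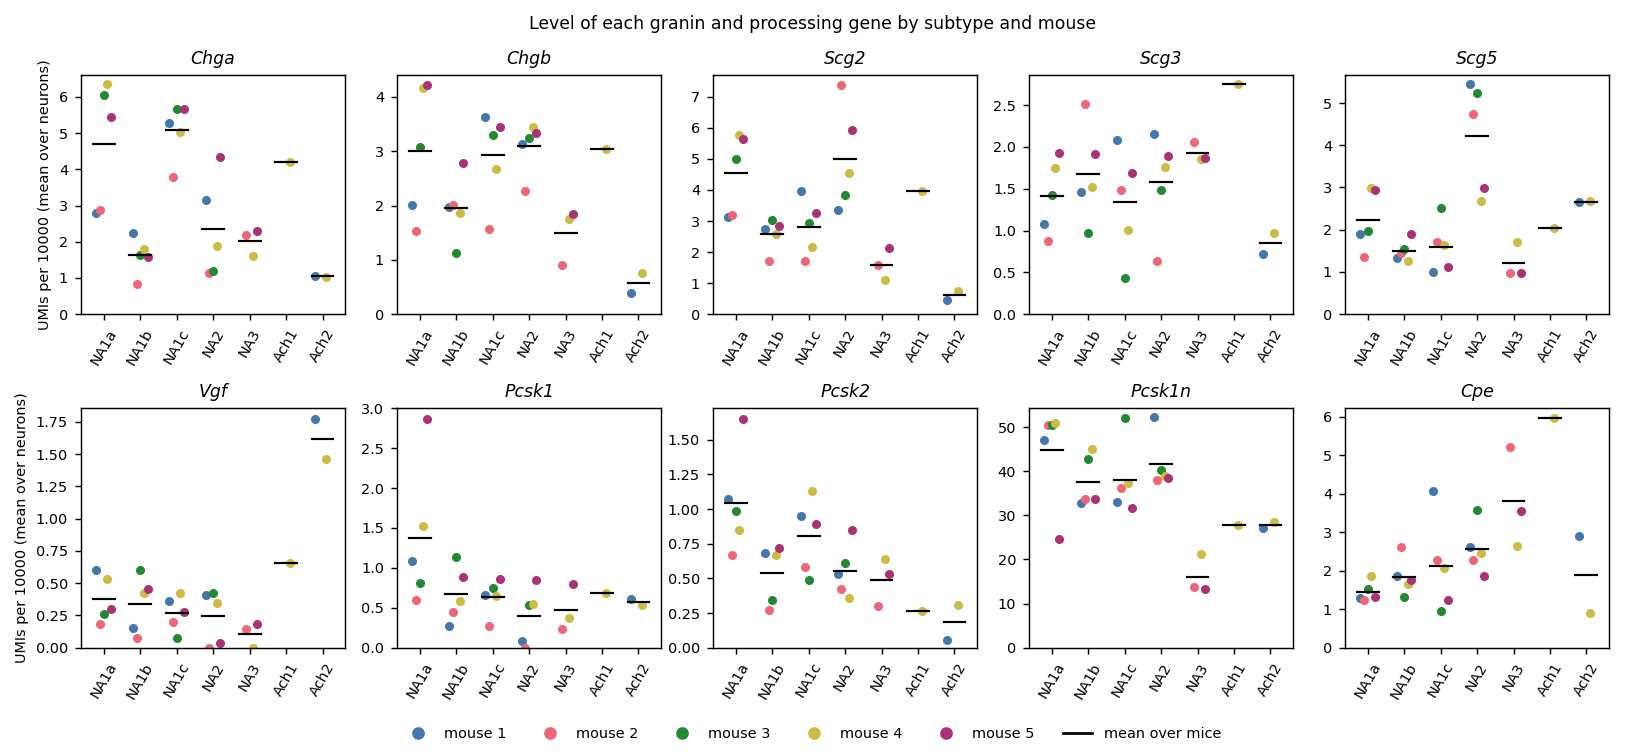
Each panel plots 1 gene, with the subtype on the horizontal axis and its level (UMIs per 10000, mean over neurons) on the vertical axis, which starts at 0. Points are the matched mice with at least 10 neurons of the subtype and bars are means over mice. Chga is low in all 5 NA1b profiles, and among the 6 subtypes with 2 or more mice Vgf is highest in Ach2 and Pcsk1n lowest in NA3.

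Subtype differences were tested with limma over all 7095 genes that passed the filter, on log2(level + 0.1) with the mouse as a block, and p-values were adjusted over all genes. All 10 genes were tested. The subtypes had been clustered by the authors from these same neurons, so no test shows that the subtypes exist. Each test used a spread estimated per gene over all profiles of the fit. A call therefore does not show how steady that difference was from mouse to mouse. Differences are log2 ± SE, and 5 of the comparisons share the NA1a profiles. A level is a share of a neuron's UMIs, so more of a gene's RNA and less of all other RNA cannot be told apart.

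Against NA1b, NA1a had more Chga and no other change among the 10 that passed the test. Chga was higher by 1.45 ± 0.26 (limma, adjusted p = 0.000197) and higher in 5 of 5 mice. Over all genes 3.48% were called in this comparison. Scg2 differed by 0.77 ± 0.24 (adjusted p = 0.0624), Pcsk2 by 0.87 ± 0.32 (0.142) and Pcsk1 by 0.87 ± 0.36 (0.204), none past the threshold, although Scg2 and Pcsk2 were higher in NA1a in all 5 mice. With a pseudocount of 1, 3 of the 10 passed, and with averaged log values 4.

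NA1b and NA1c also parted by Chga alone. It was lower in NA1b by 1.63 ± 0.26 on the log2 scale (limma, adjusted p = 3.6e-05), in 5 of 5 mice, where 1.42% of all genes were called. Between NA1a and NA1c, with 4.37% of all genes called, no gene of the 10 passed the test. At an unadjusted p under 0.05 there were 2, Scg2 (0.68 ± 0.24) and Pcsk1 (0.88 ± 0.36), and an averaged log scale called 3 and a pseudocount of 1 called 1.

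NA2 differed from NA1a in both directions. Chga (1.08 ± 0.26, adjusted p = 0.000667), Pcsk1 (1.80 ± 0.36, 8.22e-05) and Pcsk2 (0.80 ± 0.32, 0.0415) were higher in NA1a, and Scg5 (−0.89 ± 0.26, 0.00424) and Cpe (−0.76 ± 0.27, 0.0206) were higher in NA2. These 5 of 10 stand beside 43.9% of all genes called in this comparison, a share close to theirs. Chga was higher in NA1a in 4 of 5 mice, both convertases in 5 of 5, and Cpe was higher in NA2 in 5 of 5. Without recurring barcodes the calls for Scg5 (−0.68 ± 0.31, adjusted p = 0.0821) and Cpe (−0.73 ± 0.31, 0.065) were lost, while Chga (1.05 ± 0.28, 0.0029), Pcsk1 (1.48 ± 0.37, 0.0014) and Pcsk2 (0.94 ± 0.37, 0.0429) stayed past the threshold. The Pcsk2 call was lost without any 1 of the 5 mice (adjusted p from 0.0558 to 0.113), and Cpe without mouse 1 (0.0507) or mouse 3 (0.0667). Thinned to 2000 UMIs, the Chga (0.98, 0.0629) and Pcsk2 (0.61, 0.529) calls were lost.

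Against NA3, 5 of the 10 genes were higher in NA1a and 1 was lower. Pcsk1n (1.37 ± 0.20, adjusted p = 1.29e-06), Scg2 (1.48 ± 0.29, 0.000116), Chga (1.06 ± 0.30, 0.00999), Chgb (0.95 ± 0.28, 0.0129) and Pcsk1 (1.32 ± 0.43, 0.0248) were higher in NA1a, and Cpe was higher in NA3 (−1.36 ± 0.32, 0.00166). That is 6 of 10 beside 17.8% of all genes, and the median difference was 1.04 over the 10 genes and 0.23 over all genes. Each of the 6 differed in the same direction in the 3 mice that held both subtypes. Without mouse 4 the Chga (adjusted p = 0.264), Chgb (0.0899) and Pcsk1 (0.176) calls were lost, and the same 3 were lost without mouse 5 (0.079, 0.0937 and 0.159). With a minimum of 5 neurons, which admits all 5 mice to NA3, only Pcsk1n and Cpe of the 10 passed. Thinned to 2000 UMIs, the Chga (1.14, adjusted p = 0.0749), Chgb (0.82, 0.253) and Scg2 (1.15, 0.0526) calls were lost.

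NA3 neurons also carried far more satellite glia transcripts. All 9 markers of that list (Fabp7, Apoe, Sparc, Gpm6b, Sox10, Kcnj10, Dbi, Sdc4 and Vim) were detected in NA3, and their summed level was 230.0 to 464 UMIs per 10000 in its 3 mice, against 9.25 to 12.6 in NA1a. Schwann cell markers summed to 14.2 to 22.6 in NA3 and 1.94 to 2.92 in NA1a, and fibroblast markers to 11.7 to 31.3 and 0.712 to 1.29. The neuronal markers were lower in NA3, with sums of 30.5 to 35.2 against 51.0 to 71.5 in NA1a. When the NA3 neurons of each mouse were split at the median of the satellite glia sum, Pcsk1n was 10.9, 11.5 and 9.89 in the upper group of mice 2, 4 and 5 and 16.2, 30.9 and 16.7 in the lower. Cpe was 5.69, 2.48 and 4.58 in the upper group and 4.77, 2.82 and 2.58 in the lower. Pcsk1n was thus lower in the glia-rich neurons in 3 of 3 mice, and Cpe was higher in 2 of 3. The part of these other-cell transcripts, and of the lower neuronal share, in the NA3 differences was not tested further.

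In the matched mice, 4 of the 10 genes were higher in NA1a than in the cholinergic Ach2 neurons and none was lower. Scg2 was higher in NA1a by 2.61 ± 0.33 (limma, adjusted p = 2.07e-07), Chgb by 2.26 ± 0.33 (3.1e-06), Chga by 2.07 ± 0.35 (6.67e-05) and the convertase Pcsk2 by 2.27 ± 0.45 (0.000631). These 4 of 10 compare with 5.02% of all genes, and each was higher in NA1a in both mice that held both subtypes. Without recurring barcodes the 4 differences were 2.38 ± 0.32, 2.19 ± 0.34, 2.14 ± 0.36 and 2.04 ± 0.47, all past the threshold. The Pcsk2 call rested on mouse 1 and its Ach2 profile at 0.0542 (1.56 and adjusted p = 0.163 without it), and it was lost with neurons thinned to 2000 UMIs (2.40, adjusted p = 0.0946).

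The 16 Ach2 neurons of the unmatched names, which share no barcode with the matched mice, did not have the low granin levels. Their summed UMIs gave 6.50 per 10000 for Chga (exact Poisson 95% interval 4.96 to 8.36), 2.92 for Chgb (1.93 to 4.25) and 3.79 for Scg2 (2.64 to 5.27). In the 46 matched Ach2 neurons the same sums were 1.12 (0.738 to 1.63), 0.580 (0.317 to 0.974) and 0.622 (0.348 to 1.03). Pcsk2 was at 0.433 (0.118 to 1.11) in the unmatched and 0.124 (0.0257 to 0.364) in the matched Ach2 neurons. The unmatched interval reaches past 1.05, the mean of the matched NA1a profiles, so a low level there is not shown. Vgf was 7.80 in the unmatched and 1.45 in the matched neurons, and Scg5 9.31 and 2.07. The intervals cover counting error only, and the low Ach2 levels of Chga, Chgb and Scg2 therefore describe the matched mice, which share a batch. In NA1a, NA1b and NA1c the unmatched neurons gave 3.25, 0.729 and 6.61 for Chga, the same order as in the matched mice for NA1b against both others. For Chgb and Scg2 the unmatched NA1a neurons gave 2.22 (1.9 to 2.58) and 3.54 (3.14 to 3.99). Chga, Chgb and Scg2 were thus lower in unmatched NA1a than in unmatched Ach2 neurons, the reverse of the matched mice. The intervals overlapped for Chgb and Scg2.

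Not every gene was lower in Ach2 of the matched mice. Vgf had its higher value there (−1.65 ± 0.62, adjusted p = 0.126), not past the threshold, with lower values in NA1a in both mice. With a pseudocount of 1, and with averaged log values, it passed (adjusted p = 0.000534 and 0.000252). In the other 12 alternatives the limma adjusted p lay between 0.0533 and 0.853, and with a minimum of 5 neurons, which admits more mice to Ach2, the difference was −0.19. Pcsk1 (0.82 ± 0.50, 0.419), Scg3 (0.77 ± 0.41, 0.338) and Cpe (−0.04 ± 0.37, 0.974) did not pass. Pcsk1n differed by 0.72 ± 0.24 (0.0701) with all neurons and passed without recurring barcodes (0.85 ± 0.26, 0.047). Scg5 changed sign between these, from −0.34 ± 0.35 to 0.83 ± 0.40, and passed in neither.

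**Figure D2:**
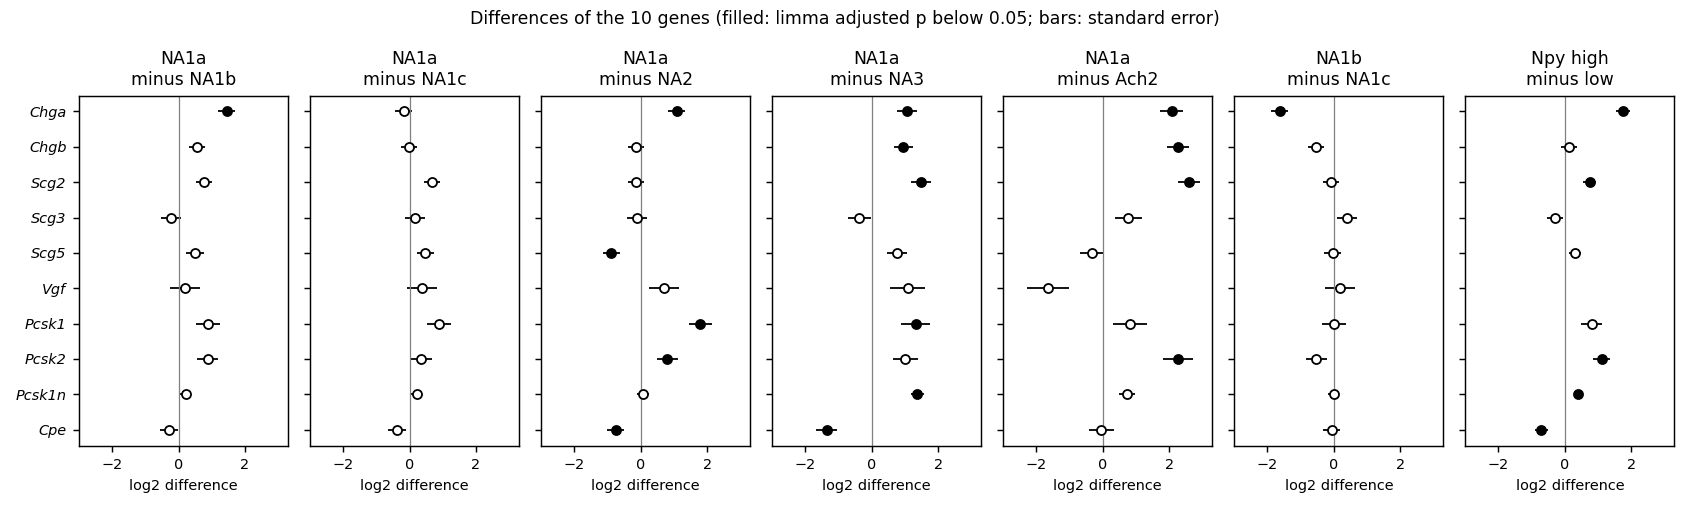
Each panel is 1 comparison, with the log2 difference on the horizontal axis and the 10 genes on the vertical axis. Bars are standard errors and filled points have a limma adjusted p below 0.05. Filled points lie furthest to the right for Scg2, Chgb, Chga and Pcsk2 against Ach2, and Cpe lies to the left of 0 against NA2 and NA3 and in the Npy comparison. Vgf was not tested between the Npy groups.

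**Figure D3:**
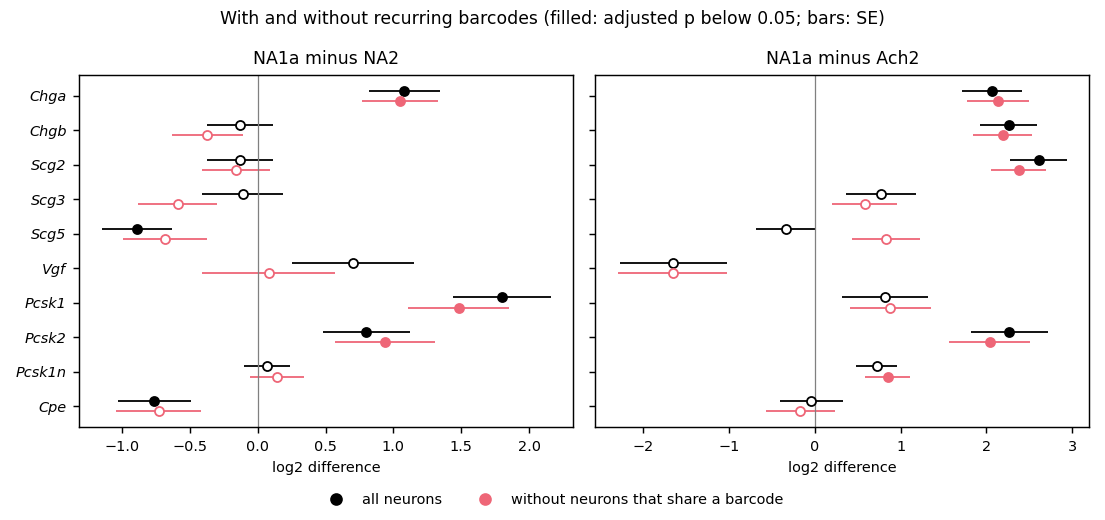
The horizontal axis gives the log2 difference (bars, standard error) of the 10 genes on the vertical axis, with all neurons in black and without neurons that share a barcode in red. Filled points have an adjusted p below 0.05. Against Ach2 the 4 filled genes stay filled, and against NA2 the Scg5 and Cpe points lose their fill.

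The study set neurons rich in Npy against neurons poor in it, and the same question was put to these genes. NA1a, NA1b and NA3 neurons of the 5 mice were grouped by their Npy level: below 5.58 UMIs per 10000, above 45.8, and between. The limits mark the lowest and highest 30% of such neurons over all mouse names, unmatched ones included. The high group held 147 NA1a, 10 NA1b and 8 NA3 neurons and the low group 5 NA1a, 118 NA1b and 31 NA3 neurons, so this comparison uses largely the neurons of NA1a against NA1b. Median UMIs per neuron were 8159 in the high and 6084 in the low group. Of 4534 genes tested, 9.66% were called.

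Chga differed most between the Npy groups. It measured 3.44, 2.74, 5.74, 6.31 and 4.13 in the high group of mice 1 to 5, and 1.63, 0.271, 2.42, 1.2 and 1.67 in the low group. The groups did not overlap, and the difference was 1.75 ± 0.21 (limma, adjusted p = 3.13e-07). Pcsk2 was at 1.28, 0.557, 0.934, 0.954 and 1.52 in the high and 0.482, 0.283, 0.3, 0.409 and 0.661 in the low group, higher in 5 of 5 mice by 1.11 ± 0.26 (adjusted p = 0.0036), although the values of the groups overlapped. Scg2 was also higher in 5 of 5 mice (0.75 ± 0.20, adjusted p = 0.01), with means of 4.36 ± 1.59 and 2.51 ± 0.896.

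Pcsk1n was higher by 0.39 ± 0.12 (limma, adjusted p = 0.0373) in 4 of 5 mice, and in mouse 5 the groups were at 25.0 and 25.6. Cpe was lower in the high group by 0.71 ± 0.20 on the log2 scale (adjusted p = 0.0211), in 4 of 5 mice, with means of 1.44 ± 0.326 and 2.44 ± 0.614. Pcsk1 (0.81 ± 0.31, adjusted p = 0.0946), Scg5 (0.30 ± 0.19, 0.405), Scg3 (−0.31 ± 0.24, 0.484) and Chgb (0.13 ± 0.25, 0.817) did not pass, and Vgf did not pass the filter. The Chga difference held in all 14 alternatives. The Pcsk1n and Cpe calls were lost without 4 and 3 of the mice in turn, Pcsk1n in each case but mouse 5 (adjusted p up to 0.185) and Cpe without mouse 1, 2 or 5 (up to 0.176), and the Scg2 call without mouse 5 (0.0542). With every neuron thinned to 2000 UMIs, only Chga passed among the 10.

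**Figure D4:**
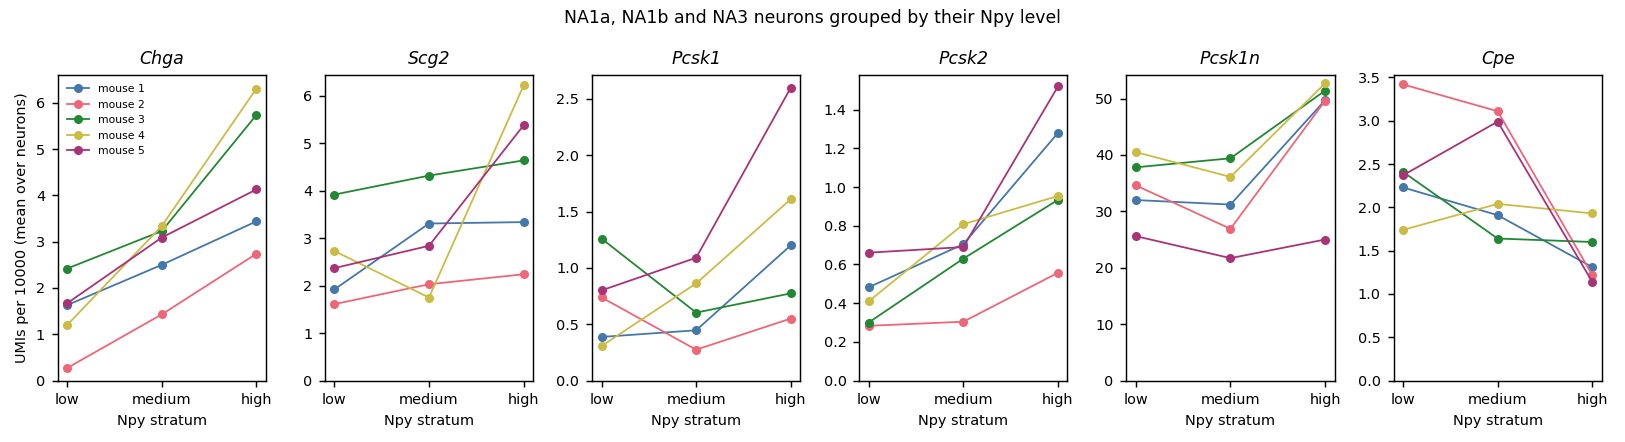
The 6 panels show Chga, Scg2, Pcsk1, Pcsk2, Pcsk1n and Cpe, with the Npy group of the NA1a, NA1b and NA3 neurons on the horizontal axis and the level (UMIs per 10000, mean over neurons) on the vertical axis, starting at 0. Lines join the groups of 1 mouse. Chga and Pcsk2 rise from low to high in all 5 mice, and Cpe falls in 4 of 5.

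Npy also varied within NA1a. NA1a neurons of each mouse were split at the mouse's median Npy level, and with 5 mice the exact sign-flip permutation test cannot go below p = 0.062. Pcsk1n was at 50.4, 59.4, 57.2, 57.2 and 30.6 UMIs per 10000 in the upper group of mice 1 to 5 and 43.6, 42.4, 43.5, 44.8 and 19.4 in the lower. The difference was 0.42 ± 0.17 (SD, n = 5 mice; exact two-sided permutation p = 0.062, the smallest possible, and 0.625 after Benjamini-Hochberg adjustment over the 10 genes). Neurons of the upper group also had more UMIs in 5 of 5 mice (medians of 6814 to 9840 against 5430 to 8656), and the part of depth in this difference was not tested. Chga was 4.66 in the upper and 4.72 in the lower group on average (0.10 ± 0.72, exact permutation p = 0.688), higher in the upper group in 3 of 5 mice. The other 8 genes had an exact p of 0.312 or more.

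Among 13 other processing enzymes, 6 passed the filter between subtypes. This list and those below were chosen with earlier results of these data known. Pam, Ctsl and Pcsk7 were called in some comparison. Pam, which amidates peptides after carboxypeptidase E has acted, was higher in NA1a than in NA1b by 0.87 ± 0.23 (limma, adjusted p = 0.0204) and in Npy-high neurons by 1.08 ± 0.18 (4.99e-05). It was the only enzyme of the list called in either of these, beside 3.48% and 9.66% of all genes. Ctsl, a lysosomal protease that can also cut peptide precursors, was higher in NA2 (−1.02 ± 0.26, 0.00122) and NA3 (−1.17 ± 0.31, 0.00478) than in NA1a. Pcsk7, a convertase of the constitutive pathway, was higher in NA1a than in NA2 (2.29 ± 0.35, 1.14e-06). Against NA2, 1 of the 6 was thus higher in NA1a and 1 lower, beside 43.9% of all genes called. Against NA3, 1 was lower, beside 17.8%. Without recurring barcodes the Pcsk7 call held (2.07 ± 0.38, 3.68e-05) and the Ctsl call against NA2 was lost (−0.67 ± 0.29, 0.0714). None of the 6 passed between NA1a and Ach2 or NA1c, or between NA1b and NA1c. In these, 5.02%, 4.37% and 1.42% of all genes were called.

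The 18 listed genes of dense-core vesicle formation and release included 15 that passed the filter. Of these, 9 were higher in NA1a than in NA3 and none lower, beside 17.8% of all genes called, with a median difference of 1.03 beside 0.23 over all genes. The summed neuronal markers were also lower in NA3, so a lower level there is not particular to vesicle genes. Resp18, a vesicle protein (2.39 ± 0.37, limma adjusted p = 3.13e-06), Cadps, which primes the vesicles for release (1.45 ± 0.27, 7.52e-05), and Slc18a2, the vesicular monoamine transporter (1.11 ± 0.22, 0.00017), had the smallest adjusted p. Against NA2, 7 were higher in NA1a and 3 lower, beside 43.9% of all genes called. Of the 15, Rab27b passed the filter through its NA2 profiles alone and so had to be higher there. A count of lower genes that holds it is a description only. Against Ach2, 3 were higher and none lower, beside 5.02%, with Slc18a2 first (2.88 ± 0.26, 2.49e-11). Without recurring barcodes 6 were higher and 3 lower against NA2, Rab27b among the lower. Against Ach2, 3 were higher, Rab27b again among them, and none lower, and Slc18a2 differed by 2.50 ± 0.25 (1.23e-09). Syt7, a calcium sensor of release, was lower in NA1a than in NA1b (−1.41 ± 0.34, 0.00926) and NA1c (−1.38 ± 0.34, 0.011). Npy-high neurons had more Slc18a2 (0.62 ± 0.13, 0.00137) and less Syt7 (−0.95 ± 0.22, 0.00405) than Npy-low ones.

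Of 19 peptide precursors, 7 passed the filter between subtypes. Npy and Gal were higher in NA1a than in each of the other noradrenergic subtypes, for example by 3.26 ± 0.19 and 2.64 ± 0.23 against NA1b (limma, adjusted p = 1.96e-17 and 2.53e-11). Against Ach2, where 5.02% of all genes were called, 2 of the 7 were higher in NA1a, Npy among them (3.76 ± 0.26, 1.83e-14), and 5 were lower. Without recurring barcodes 2 were higher and 4 lower of 6 tested. Of the 7, Sst, Calca and Pdyn passed the filter through the 2 Ach2 profiles alone. Cartpt reached it in the 2 Ach2 profiles and in 1 NA2 profile, too few to pass without Ach2. These genes thus had to be higher in Ach2 than in NA1a, and their count is a description only. Cartpt, a precursor of CART peptides, measured 20.9 ± 9.1 UMIs per 10000 in Ach2 and 0.0366 ± 0.0538 in NA1a, and 12.9 ± 14.4 in Ach2 without recurring barcodes. Calca, the precursor of calcitonin gene-related peptide, gave 70 UMIs in the matched Ach2 neurons, 36 of them in neurons without a recurring barcode, and 0 in NA1a. Without recurring barcodes Npy differed from Ach2 by 3.35 ± 0.27 (2.77e-12). Npy itself set the Npy groups, so its difference between them is no finding.

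Over the 25 profiles, the 10 genes did not vary as a block. Pearson correlations of their log2 levels, given as a description since profiles share mice and depth, were highest for Chgb with Scg2 (0.816), Chgb with Pcsk2 (0.749) and Chga with Pcsk2 (0.701), and lowest for Pcsk1n with Cpe (−0.509). Pcsk1 and Pcsk2 correlated at 0.395, Pcsk1 with its inhibitor gene Pcsk1n at 0.0298, and Pcsk2 with its chaperone gene Scg5 at −0.0773. Outside the set, the most similar gene was Rxfp1 for Chga (0.834), Dkk3 for Chgb (0.83), Plcxd3 for Scg2 (0.893), App for Scg3 (0.718) and Hint1 for Scg5 (0.836). For Vgf it was Gm15446 (0.775), for Pcsk1 Dlg2 (0.807), for Pcsk2 Gucy1a1 (0.828), for Pcsk1n Gap43 (0.812) and for Cpe mt-Co1 (0.760).

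Ach1 and Glut could be described only. In the 55 Ach1 neurons of mouse 4 the levels were 4.21 for Chga, 3.04 for Chgb, 3.97 for Scg2, 5.98 for Cpe and 27.9 for Pcsk1n. For the 3 granins that is above both Ach2 profiles of the matched mice, which share a batch. In the unmatched Ach2 neurons the summed UMIs gave 6.50 for Chga, 2.92 for Chgb and 3.79 for Scg2. The summed satellite glia level of the Ach1 neurons was 142, and that of fibroblast markers 38.7, and their part in the Ach1 values was not tested.

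Glut neurons were few, 17 in the matched mice and 37 in all. In the 17, UMIs summed over neurons gave 41.2 per 10000 for Scg3 (exact Poisson 95% interval 36.7 to 46.0), 10.3 for Cpe (8.08 to 12.8), 6.34 for Vgf (4.66 to 8.43) and 4.59 for Pcsk2 (3.18 to 6.41). Of the 305 Scg3 UMIs, 229 (75.1%) came from 3 neurons, and so did 80.9% of the Vgf, 73.7% of the Cpe and 76.5% of the Pcsk2 UMIs, counting the 3 highest neurons of each gene. Pcsk1n was at 11.7 (9.40 to 14.5). In the 20 Glut neurons of the unmatched names the corresponding sums were 2.38 for Scg3, 3.66 for Cpe, 5.45 for Vgf, 0.0990 for Pcsk2 and 24.0 for Pcsk1n. Chgb was at 8.12 in the unmatched and 3.24 in the matched set. These sums rest on few neurons, the matched mice share a batch, and the sets were not tested against each other.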

How the data were processed

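Single cells of stellate ganglia were captured with the 10x Genomics Chromium system, and per the labels the reads were processed with Cell Ranger 2.1.1 against mm10. Per the study's methods, left and right ganglia were combined, cells were kept between 500 and 6000 genes, below 20000 UMIs and below 15% mitochondrial RNA, and subtypes came from Louvain clustering; doublet removal was not given in the sources used here. The authors deposited the natural log of 1 plus UMIs per 10000, for neurons only. Whole UMIs were recovered from these values (100% within 0.01 of a whole number), and mouse totals were 916296 to 1196621 UMIs. Counts of cells are not replicates, so levels were averaged per mouse and subtype (at least 10 neurons). Since the deposited unit is a log value, log2(level + 0.1) was tested with limma 3.58.1 in R 4.3.3, with trend and mouse as a block, over genes at 0.5 or more in as many profiles as the smallest group, and Benjamini-Hochberg adjusted over all genes. NA1a, NA1b, NA1c, NA2, NA3 and Ach2 shared 1 fit and the Npy groups another. Profiles of the same animal were paired by design. The mean correlation of their deviations ran from 0.0329 to 0.116 by mouse. The scripts were tested on simulated data. Alternatives were a pseudocount of 1, no filter, no block, leaving out each mouse, at least 5 neurons, thinning to 2000 UMIs, summed UMIs, averaged log values, centring on the median gene and, added later, leaving out recurring barcodes. The members and lists were chosen with earlier results of these data known. All 10 genes are named, with up to 3 genes of each fixed list by smallest p per comparison and the genes most alike in profile. Pcsk2 and Pcsk1n overlap genes on the other strand (Pcsk2os1, Eras), and use of strand in counting was not given in the sources used here. Python 3.11.15, NumPy 2.4.6, pandas 2.3.3 and SciPy 1.17.1 were used. A marker of the satellite glia list is not reported here and was left out of its sums.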

Additional observations from a re-analysis of the deposited data

Results flagged for a closer look

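Of 40 gene and subtype pairs with 5 mice, 4 held a mouse far from the others by Dixon's criterion, which chance alone exceeds in about 1 of 20 groups. Pcsk1n in NA1a was 24.7 UMIs per 10000 in mouse 5 (23 neurons) and 47.0 to 51.0 in the others. Pcsk1n in NA1c was 52.1 in mouse 3 (20 neurons) and 31.7 to 37.3 in the others. Pcsk1n in NA2 was 52.4 in mouse 1 (27 neurons) and 38.1 to 40.2 in the others. Chgb in NA2 was 2.27 in mouse 2 (14 neurons) and 3.13 to 3.45 in the others.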

How the results depend on the processing

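Of the 22 differences past the threshold among the 10 genes, none changed direction under the 14 alternatives. Those of Chga in NA1b (against NA1a and NA1c) and between the Npy groups, of Chga, Chgb and Scg2 against Ach2, of Pcsk1 against NA2, and of Pcsk1n and Cpe against NA3 passed in all 14. No alternative used the neurons of the unmatched names, whose summed UMIs put Chga, Chgb and Scg2 higher in Ach2 than in NA1a. Counts moved more, and the cause was not tested. Leaving out each mouse in turn, genes of the 10 called ranged from 3 to 4 (NA1a against NA2, 5 with all mice), 3 to 6 (NA3, 6), 3 to 5 (Ach2, 4) and 3 to 5 (Npy groups, 5), and stayed at 1 (NA1b), 0 (NA1c) and 1 (NA1b against NA1c). Over all genes the ranges were 92 to 201 (NA1b), 70 to 211 (NA1c), 2621 to 2906 (NA2), 847 to 1250 (NA3), 142 to 374 (Ach2), 62 to 123 (NA1b against NA1c) and 263 to 397 (Npy groups), with 247, 310, 3112, 1262, 356, 101 and 438 for all mice. Without mouse 1 the counts were 92 (NA1b), 70 (NA1c), 142 (Ach2) and 263 (Npy groups). Without mouse 1 or 4, Ach2 keeps 1 profile, whose spread is assumed to be that of the other groups. With a pseudocount of 1, 3 of the 10 and 400 genes were called against NA1b and 1 of the 10 against NA1c. Averaged natural log values called 4 of the 10 and 544 genes against NA1b, and 3 of the 10 and 882 genes against NA1c. Without the filter, 153 genes (NA1b), 146 (NA1c), and 2 of the 10 and 279 genes (Npy groups) were called. With at least 5 neurons the counts were 61 (NA1b), 53 (NA1c), 1798 and 3 of the 10 (NA2), 789 and 2 of the 10 (NA3), 990 (Ach2) and 33 (NA1b against NA1c). Thinned to 2000 UMIs, they were 59 (NA1b), 61 (NA1c), 1533 and 3 of the 10 (NA2), 820 and 3 of the 10 (NA3), 222 (Ach2), 44 (NA1b against NA1c), and 149 and 1 of the 10 (Npy groups). Summed UMIs called 161 genes between NA1b and NA1c. Without recurring barcodes, chosen after seeing the data, 3 of the 10 passed against NA2. Without the replicate block, 2 of the 10 and 221 genes were called between the Npy groups, where Scg2, Pcsk1n and Cpe were lost, as were Pcsk2 against NA2 (adjusted p = 0.0584) and Pcsk1 against NA3 (0.0819). The block changed no other call among the 22. Shallow neurons limit Vgf, Pcsk1 and Pcsk2, which average about 1 UMI per 10000 or less in most profiles.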
